A study of Mus musculus with 24 samples.

Results

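The naive pluripotency factors examined here were *Esrrb*, *Zfp42* (Rex1), *Tbx3*, *Nr0b1* (Dax1), *Tfcp2l1*, *Nr5a2* and *Prdm14*. They were taken by gene name from a table of 25965 entries, so they make up 7 of 25965, and each name occurred in the table. RNA-seq had been made from male C57/Bl6 mouse embryonic stem cells (mESCs) that were expanded in 2i medium and weaned into DME HiHi, a medium with serum and without LIF, to start a non-directed differentiation. Every culture was transduced with a retrovirus carrying a short hairpin RNA (shRNA) on day 2, was put under puromycin on day 3, and was harvested on day 4, 5, 6 or 7. The groups analysed here were Nons, a nonsilencing hairpin, with 4 libraries, and the knockdowns of *Smarcc1* and of *Smarca4* with 8 libraries each. Each knockdown used 2 hairpins, named Smarcc1.6, Smarcc1.7, Smarca4.4 and Smarca4.6, and each hairpin had 1 library on each day. Nons had values for 1 library on each day, so Nons enters each comparison as 1 series. The sample labels name a second Nons series, but the values used here did not include it. Nothing in the sources used here says that the hairpins or days were separate cultures. In the fit as reported, *p*-values measure the spread between the 2 hairpins of a knockdown on the same day only. Nons, with 1 library on each day, adds nothing to that spread, so its own variation was not measured.

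Naive pluripotency is the state of the pre-implantation epiblast, and 2i medium, with inhibitors of the MEK and GSK3 kinases, holds mESCs in it. LIF, through STAT3, and the Wnt pathway, through relief of the repressor Tcf7l1, feed into a layer of transcription factors that includes *Esrrb*, *Tfcp2l1*, *Tbx3*, *Nr5a2* and the Klf factors, which in turn maintain *Nanog* and *Pou5f1*. When the inhibitors and LIF are withdrawn this layer is turned down before the core factors are. Smarcc1 and Smarca4 are subunits of BAF, a chromatin remodelling complex with an ESC-specific form, and Smarca4 is its ATPase. The comparison of knockdown with Nons asks whether depletion of a BAF subunit altered the levels of pluripotency factors or the timing of their loss.

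The sequences that define the groups are the sites the hairpins match, shown because each knockdown rests on 2 of them. Each is the 22-base site in the messenger RNA, 5′ to 3′; the hairpin's guide strand is its reverse complement. Capitals mark the stretch that pairs with bases 2 to 8 of the guide, its seed.
Smarcc1.6: gcaggatgaagaagCAGTTACa
Smarcc1.7: tcagaaggaagaagATGAGCAa
Smarca4.4: actggagtcagacaGTAATAAa
Smarca4.6: actgatgaacactaTTATGCAa
All 4 sites lie on the plus strand of chromosome 9 (mm10, GENCODE M21). Smarcc1.6 matches exon 13 of *Smarcc1* at chr9:110177472-110177493 and Smarcc1.7 matches exon 11 at chr9:110173911-110173932, both in coding sequence. Smarca4.6 matches coding sequence in exon 22 of *Smarca4* at chr9:21670504-21670525. Smarca4.4 matches the 3′ UTR in exon 34 at chr9:21703327-21703348. In the annotated transcripts each whole site occurred in its target gene only. The longest run of bases that a site shared with a transcript of any naive factor was 11, of the 20 inner bases searched.

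The hairpins lowered their targets in all 16 knockdown libraries. *Smarcc1* stood at 23.7 to 41.7% of the same-day Nons level with Smarcc1.6 and at 42.0 to 60.1% with Smarcc1.7. *Smarca4* stood at 25.2 to 55.3% with Smarca4.4 and at 21.6 to 28.3% with Smarca4.6. The fitted log2 change was -1.33 ± 0.21 (SE, adjusted *p* = 0.00115) for *Smarcc1* and -1.79 ± 0.29 (SE, adjusted *p* = 0.00277) for *Smarca4*. The latter missed the threshold without Smarca4.6 (-1.59, adjusted *p* = 0.0685) and without day 7 (-1.76, adjusted *p* = 0.0558). Library totals ranged from 6829596 reads, for Smarca4.4 on day 5, to 27472885 reads, for Nons on day 4, and 3 reads, the smallest number told from none here, are worth 0.109 to 0.439 rpm (reads scaled to a fixed library total, as deposited).

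On all 4 days *Esrrb*, *Zfp42* and *Prdm14* were higher in every knockdown library, of either target, than in the Nons library of the same day. *Nr5a2* and *Tbx3* were higher in all 8 *Smarcc1* knockdown libraries and in 7 and 6 of 8 *Smarca4* knockdown libraries. For *Prdm14* this includes 1 library, Smarca4.6 on day 6, with 2 reads against 0 in Nons, which is under the 3 reads told from none. *Tfcp2l1* lay above Nons with all 4 hairpins on days 4 and 5 only, and *Nr0b1* lay below Nons in all 8 *Smarca4* knockdown libraries. Of the 7 factors 5 thus lay above Nons in every *Smarcc1* library, against 8.69% of the 13296 genes tested, and 3 of 7 did so in every *Smarca4* library, against 9.85% of genes. In bulk RNA fewer cells that express a gene and less of its RNA per cell cannot be told apart.

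**Figure D1:**
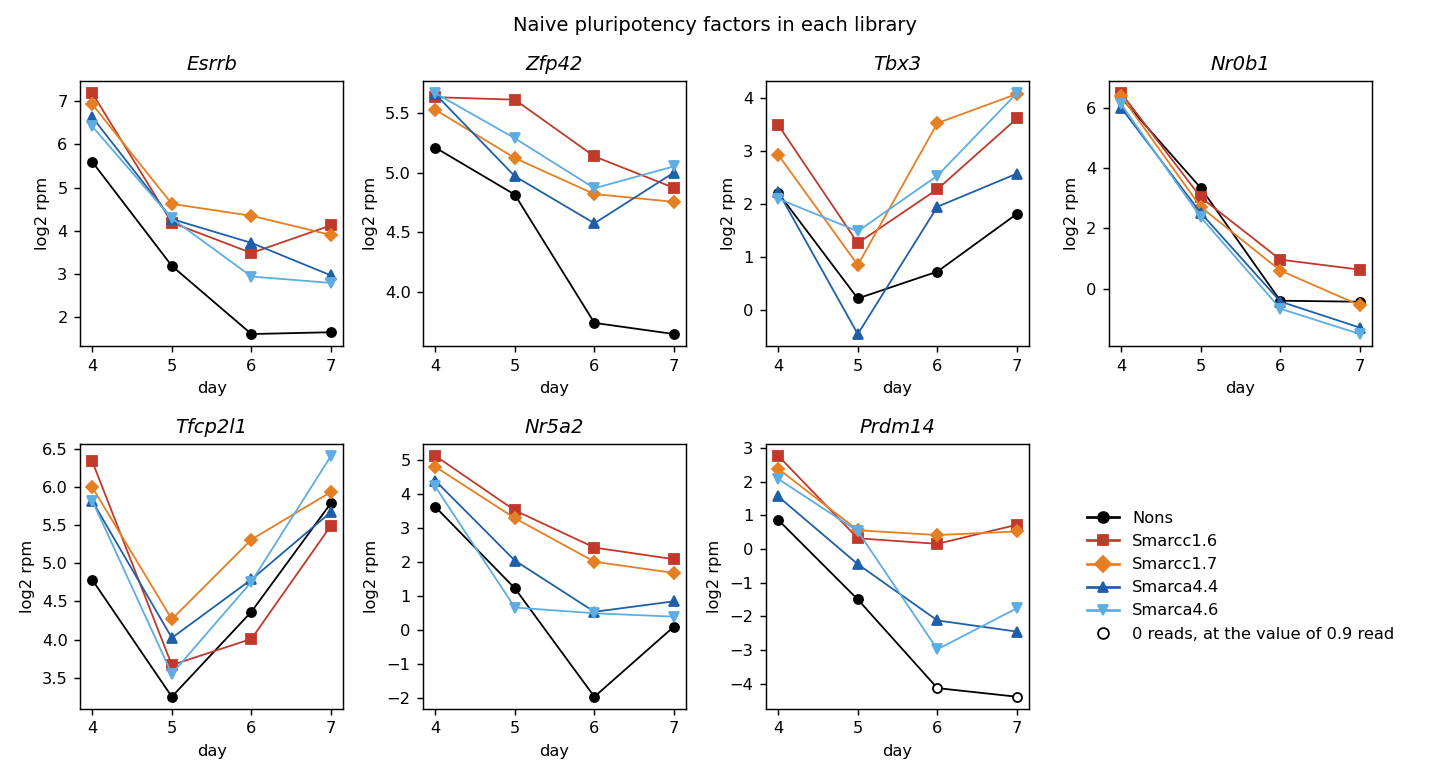
Log2 rpm (y axis) of each of the 7 factors by day of differentiation (x axis), with 1 point for each library and 1 line for each hairpin or Nons series. The Nons line lies lowest for *Esrrb*, *Zfp42* and *Prdm14* on every day, and *Tbx3* and *Tfcp2l1* have their lowest value on day 5 in all 5 series.

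Differences were tested with limma on log2 rpm over the 13296 genes with a mean of at least 0, averaged over the 4 days, and *p*-values were adjusted by the Benjamini-Hochberg method, with calls made under 0.05. Of the 7 factors 6 passed this filter and *Prdm14* did not. In *Smarcc1* knockdown 4 of 6 rose (*Nr5a2*, *Esrrb*, *Tbx3* and *Zfp42*), with a median log2 difference over the 6 of 1.17 against 0.06 over all genes, and 7.54% of all genes tested were called higher. In *Smarca4* knockdown 3 of 6 rose (*Esrrb*, *Nr5a2* and *Zfp42*), with a median of 0.80 against 0.06, and 4.75% of all genes were called higher. No factor was called lower in either. Of all genes called, 71.0% were higher in *Smarcc1* knockdown and 70.7% in *Smarca4* knockdown, which became 53.7% and 52.9% after quantile normalization and 64.2% and 60.5% after centring each library on its median gene. With the hairpin series, all days of 1 hairpin or of Nons, as a random effect 3 and 2 factors were called higher. Of the 13296 genes 454 and 183 were.

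**Figure D2:**
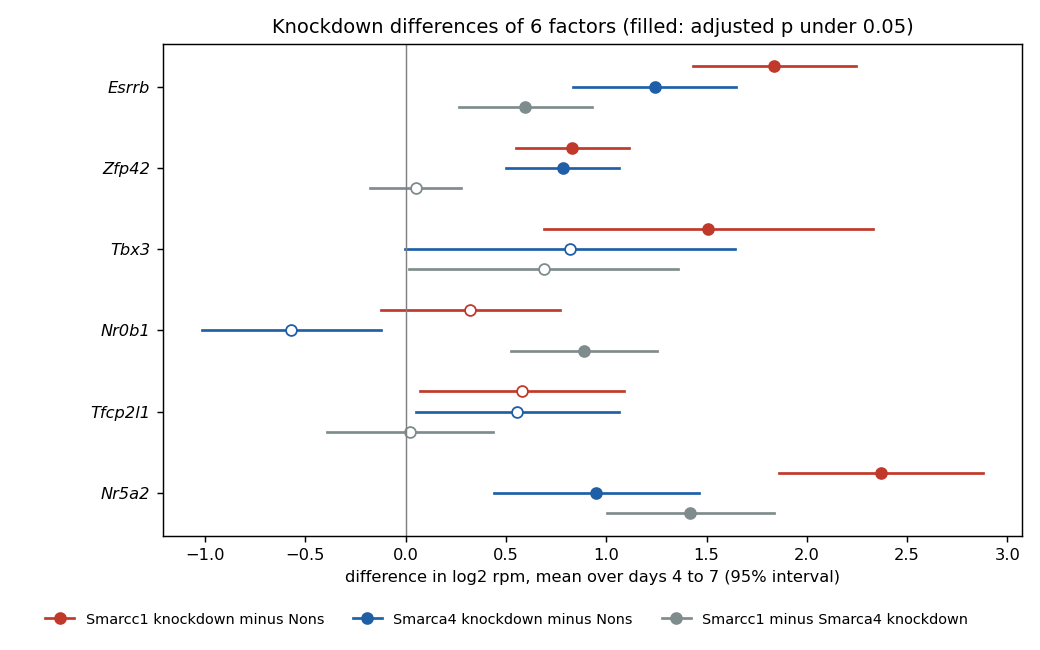
Difference in log2 rpm averaged over days 4 to 7 (x axis) for 6 factors (y axis), as *Smarcc1* knockdown minus Nons, *Smarca4* knockdown minus Nons, and *Smarcc1* minus *Smarca4* knockdown. Points are limma estimates, lines are 95% intervals, and filled points have an adjusted *p* under 0.05, as 4, 3 and 3 of the 6 do.

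*Esrrb* encodes an orphan nuclear receptor, a target of the Wnt and GSK3 arm of 2i, and lies on chromosome 12 (chr12:86361117-86521628, plus strand, mm10). In Nons it stood at 48.4 rpm on day 4, 9.12 on day 5, 3.05 on day 6 and 3.14 on day 7. Its loss was thus largely complete by day 6, with 6.49% of the day 4 level left on day 7. Smarcc1.6 libraries held 146, 18.2, 11.2 and 17.5 rpm on days 4 to 7 and Smarcc1.7 libraries 122, 24.7, 20.4 and 15.0 rpm. Smarca4.4 libraries held 99.1, 19.3, 13.2 and 7.82 rpm and Smarca4.6 libraries 85.5, 19.5, 7.69 and 6.93 rpm. Every knockdown library lay above its Nons library, and the *Smarcc1* libraries kept 12.0 and 12.3% of their day 4 level on day 7. The log2 difference from Nons was 1.84 ± 0.19 (SE, adjusted *p* = 6.9e-05) in *Smarcc1* knockdown and 1.24 ± 0.19 (SE, adjusted *p* = 0.00181) in *Smarca4* knockdown. Both calls held under every alternative tried.

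*Nr5a2* (Lrh-1) encodes a nuclear receptor that can bind the *Pou5f1* regulatory region, and lies on chromosome 1 (chr1:136843584-136960427, minus strand). In Nons it fell from 12.3 rpm on day 4 to 2.33 on day 5 and 0.254 on day 6, which is 4 reads, and stood at 1.07 on day 7. Smarcc1.6 libraries held 34.7, 11.4, 5.34 and 4.21 rpm and Smarcc1.7 libraries 27.8, 9.72, 4.00 and 3.18 rpm. These 8 libraries all lay above Nons. Smarca4.4 libraries held 20.96, 4.10, 1.44 and 1.78 rpm and Smarca4.6 libraries 18.6, 1.57, 1.40 and 1.30 rpm, which overlapped Nons on day 5. The log2 difference from Nons was 2.37 ± 0.24 (SE, adjusted *p* = 5.86e-05) in *Smarcc1* knockdown, the largest of the 6 factors, and 0.95 ± 0.24 (SE, adjusted *p* = 0.0301) in *Smarca4* knockdown. The second call was lost without day 6, when Nons had 4 reads (0.44, adjusted *p* = 0.525), without day 4 or 7 (1.04 and 1.10, adjusted *p* = 0.106 and 0.115), without Smarca4.4, Smarcc1.6 or Smarcc1.7 (adjusted *p* = 0.129, 0.0772 and 0.0752), after quantile normalization (0.59, adjusted *p* = 0.245), with 1 added to rpm (0.50, adjusted *p* = 0.123), by limma-voom (0.88, adjusted *p* = 0.0521) and in the additive model (adjusted *p* = 0.107). With the hairpin series as a random effect its adjusted *p* was 0.145, so the call was lost in 11 of the 17 alternatives.

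*Zfp42*, which encodes the zinc finger protein Rex1 and is a widely used marker of the naive state, lies on chromosome 8 (chr8:43295068-43307009, minus strand). It fell least of the factors that fell, from 37.0 rpm on day 4 in Nons to 28.2, 13.4 and 12.5 rpm on days 5 to 7. Smarcc1.6 libraries held 49.6, 48.9, 35.2 and 29.3 rpm and Smarcc1.7 libraries 46.1, 34.8, 28.2 and 27.0 rpm. Smarca4.4 libraries held 50.5, 31.3, 23.8 and 32.0 rpm and Smarca4.6 libraries 50.8, 39.1, 29.2 and 33.2 rpm. No knockdown library overlapped Nons, and on day 7 the 4 hairpins kept between 58.5 and 65.3% of their day 4 level where Nons kept 33.8%. The log2 difference was 0.83 ± 0.13 (SE, adjusted *p* = 0.0012) in *Smarcc1* knockdown and 0.78 ± 0.13 (SE, adjusted *p* = 0.00336) in *Smarca4* knockdown. The first missed the threshold without day 7 (0.72, adjusted *p* = 0.0520). The second missed it without day 7 (0.58, adjusted *p* = 0.165) and without Smarca4.6 (0.70, adjusted *p* = 0.0861).

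Promoter windows of 300 bases from RefSeq (GRCm38.p6, the assembly of mm10) were available for 5 of the 7 factors, *Esrrb* and *Nr5a2* with 2 starts each. They were searched on both strands for 4 motifs chosen after these windows had been seen. The octamer ATTTGCAT, bound by Oct factors, occurred in 1.74% of 32851 windows of this length and CCACACCC, a Klf-type box, in 3.56%. AAGGTCA, the type of site that Esrrb binds, occurred in 4.72% and CTTTGAA, the type that Tcf factors bind, in 5.14%. Only the *Zfp42* window held a match, to the octamer 186 bases and to the Klf-type box 75 bases before the start, which do not overlap. The 250 bases before its start (chr8:43307010-43307259, minus strand, 5′ to 3′), shown because *Zfp42* fell least and held these matches, carry the motifs in capitals. A match is a description of the letters and does not mark a bound site.
Zfp42: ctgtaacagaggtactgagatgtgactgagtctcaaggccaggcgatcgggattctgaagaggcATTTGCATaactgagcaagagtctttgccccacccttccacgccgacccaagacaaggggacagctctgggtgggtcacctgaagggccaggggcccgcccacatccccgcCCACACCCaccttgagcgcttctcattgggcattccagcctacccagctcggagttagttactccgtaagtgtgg

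*Tbx3*, a T-box factor downstream of PI3K and LIF signals, lies on chromosome 5 (chr5:119670669-119684724, plus strand). In Nons it stood at 4.62 rpm on day 4, 1.16 on day 5, 1.65 on day 6 and 3.52 on day 7. It therefore fell and came back within the time course. Smarcc1.6 libraries held 11.2, 2.40, 4.85 and 12.2 rpm and Smarcc1.7 libraries 7.61, 1.80, 11.5 and 16.8 rpm, all above Nons. Smarca4.4 libraries held 4.70, 0.732, 3.86 and 5.95 rpm and Smarca4.6 libraries 4.28, 2.80, 5.78 and 17.0 rpm. These overlapped Nons on days 4 and 5 and lay above it on days 6 and 7. The log2 difference was 1.51 ± 0.38 (SE, adjusted *p* = 0.0222) in *Smarcc1* knockdown and 0.82 ± 0.38 (SE, adjusted *p* = 0.258) in *Smarca4* knockdown. The *Smarcc1* call was lost with the hairpin series as a random effect (adjusted *p* = 0.108) and after quantile normalization (1.32, adjusted *p* = 0.0652). It was also lost without Smarcc1.6 (adjusted *p* = 0.0542) and without Smarcc1.7 (1.42, adjusted *p* = 0.107). Leaving out day 4, 6 or 7 did the same (1.68, 1.29 and 1.34, adjusted *p* = 0.0579, 0.103 and 0.151). *Tbx3* rested on 5 to 287 reads per library. *Gm2301*, an entry on the other strand that overlaps it, had 0 to 10 reads, and reads of these genes cannot be told apart where strand was not used.

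*Tfcp2l1*, a grainyhead-like factor and a target of LIF and STAT3, lies on chromosome 1 (chr1:118627945-118685167, plus strand). In Nons it stood at 27.6, 9.52, 20.6 and 55.4 rpm on days 4 to 7, so its day 7 level was 201% of its day 4 level. Smarcc1.6 libraries held 80.8, 12.7, 16.1 and 45.1 rpm and Smarcc1.7 libraries 63.9, 19.3, 39.7 and 61.2 rpm. Smarca4.4 libraries held 56.4, 16.3, 27.6 and 51.1 rpm and Smarca4.6 libraries 56.6, 11.7, 27.1 and 85.0 rpm. All hairpins lay above Nons on days 4 and 5, by a log2 difference of 1.38 in *Smarcc1* and 1.04 in *Smarca4* knockdown on day 4, and on day 7 both groups overlapped it. Averaged over days the log2 difference was 0.58 ± 0.23 (SE, adjusted *p* = 0.156) and 0.56 ± 0.23 (SE, adjusted *p* = 0.207), neither past the threshold. Without Smarcc1.6 the former passed it (0.83, adjusted *p* = 0.030).

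*Nr0b1* encodes an orphan nuclear receptor on the X chromosome (chrX:86191764-86195947, plus strand), of which these male cells carry a single copy. In Nons it fell from 80.0 rpm on day 4 to 10.1, 0.764 and 0.746 rpm on days 5 to 7. Smarcc1.6 libraries held 89.1, 8.17, 1.96 and 1.56 rpm and Smarcc1.7 libraries 83.4, 6.55, 1.52 and 0.686 rpm. Smarca4.4 libraries held 63.6, 5.71, 0.748 and 0.412 rpm and Smarca4.6 libraries 69.0, 5.18, 0.635 and 0.356 rpm. All 8 *Smarca4* libraries lay below Nons, while the *Smarcc1* libraries lay above it on days 4 and 6 and below it on day 5. Smarca4.4 on day 6 was next to level with Nons, at a log2 difference of -0.03. The share of all genes that lay below Nons in all 8 *Smarca4* libraries was not counted. Neither knockdown passed the threshold against Nons, with log2 differences of 0.32 ± 0.21 (SE, adjusted *p* = 0.397) and -0.57 ± 0.21 (SE, adjusted *p* = 0.135). The *Smarcc1* difference changed sign under quantile normalization (-0.11). Libraries of days 6 and 7 held 6 to 44 reads of this gene.

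*Prdm14*, a PR-domain regulator that represses FGF signalling and DNA methyltransferase genes in naive cells, lies on chromosome 1 (chr1:13113457-13127163, minus strand). It was the lowest of the 7 by reads, with under 10 reads in 8 of 20 libraries. In Nons it had 1.82 rpm (50 reads) on day 4, 0.354 rpm (7 reads) on day 5, and 0 reads on days 6 and 7. Smarcc1.6 libraries held 6.80, 1.25, 1.11 and 1.65 rpm and Smarcc1.7 libraries 5.21, 1.47, 1.33 and 1.43 rpm. From day 5 on the *Smarcc1* libraries thus stayed near a constant level, between 21 and 36 reads. Smarca4.4 libraries held 2.95, 0.732, 0.230 and 0.183 rpm and Smarca4.6 libraries 4.23, 1.44, 0.127 and 0.296 rpm, which on days 6 and 7 is 2 to 5 reads. Against a floor of 3 reads in the Nons library, *Prdm14* was at least 5.83-fold and 6.98-fold higher on day 6 and at least 10.3-fold and 8.97-fold higher on day 7 in the Smarcc1.6 and Smarcc1.7 libraries. Its mean lay under the filter on low values, so it was not among the factors tested above. In the limma fit with no such filter it was called higher in *Smarcc1* knockdown (adjusted *p* = 8.13e-06) and in *Smarca4* knockdown (adjusted *p* = 0.0104). It was also called higher in *Smarcc1* against *Smarca4* knockdown (adjusted *p* = 0.00182). The factors called higher were then 5, 4 and 4 of 7, where 1405, 647 and 489 of all 25965 entries were. The fitted differences from Nons and their adjusted *p*-values depend on the value given to 0 reads. No fitted difference is printed.

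**Figure D3:**
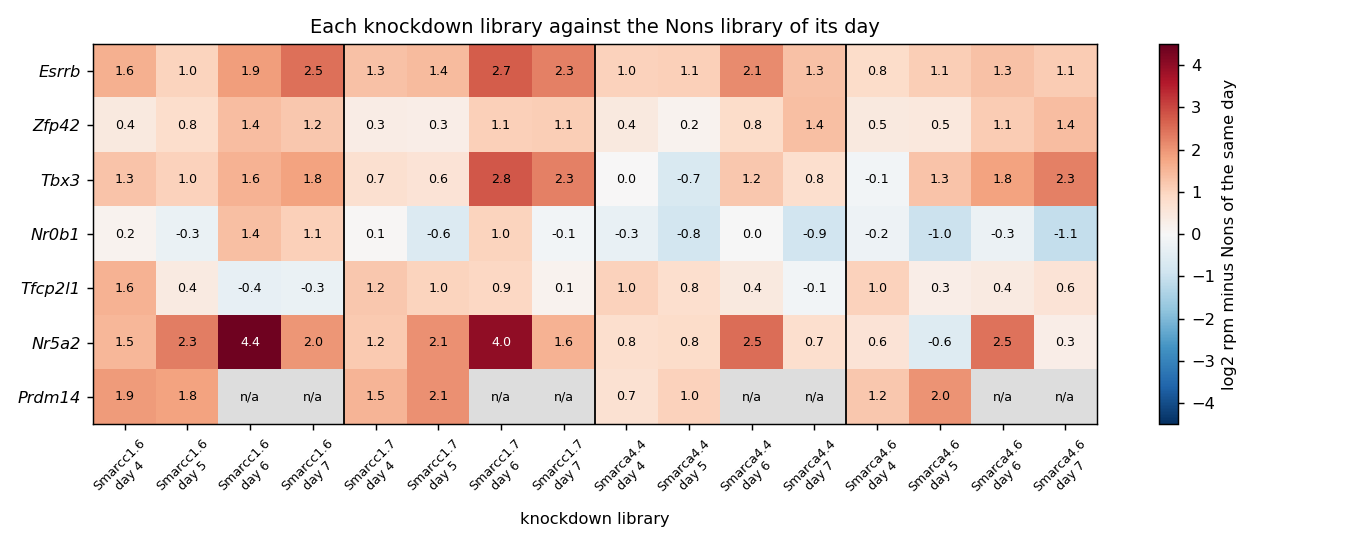
Log2 rpm of each knockdown library minus that of the Nons library of the same day, for the 7 factors (rows) in 16 libraries (columns), in colour and as printed values. Grey cells marked n/a are the 8 *Prdm14* values on days 6 and 7, where Nons had 0 reads. The row of *Nr0b1* is the only one with no *Smarca4* value above 0. Its value for Smarca4.4 on day 6, -0.03, is printed as 0.0.

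The knockdowns were also compared with each other, which does not use Nons. Of 6 tested factors 3 were called higher in *Smarcc1* than in *Smarca4* knockdown, with a median over the 6 of 0.64 against 0.00 over all genes, and 2.55% of all genes were called higher. *Nr5a2* differed by 1.42 ± 0.19 on the log2 scale (SE, adjusted *p* = 0.00148), *Nr0b1* by 0.89 ± 0.17 (SE, adjusted *p* = 0.0108) and *Esrrb* by 0.60 ± 0.15 (SE, adjusted *p* = 0.0488). For *Nr5a2* and *Nr0b1* every *Smarcc1* library lay above every *Smarca4* library of its day on all 4 days, as in 1.51% of genes. *Esrrb* groups overlapped on days 5 and 6. With the hairpin series as a random effect only *Nr5a2* stayed past the threshold, and *Nr0b1* (adjusted *p* = 0.0806) and *Esrrb* (adjusted *p* = 0.267) did not. Of the 13296 genes 77 were then called higher. *Nr5a2* lost its call without Smarcc1.6 (1.25, adjusted *p* = 0.0823), and *Nr0b1* without Smarcc1.6, Smarca4.4 or Smarca4.6 (0.65, 0.95 and 0.83, adjusted *p* = 0.140, 0.110 and 0.222) without day 6 or 7 (0.75 and 0.71, adjusted *p* = 0.0897 and 0.0745), and after quantile normalization (0.72, adjusted *p* = 0.0532). *Esrrb* lost it without any 1 of the 4 hairpins (0.45 to 0.74, adjusted *p* from 0.106 to 0.457), without day 4 or 7 (0.62 and 0.42, adjusted *p* = 0.173 and 0.594), without the Smarca4.4 library of day 5 (0.59, adjusted *p* = 0.0552), and among genes of at least 10 rpm on average (adjusted *p* = 0.0713). The 95% interval of the difference was -0.18 to 0.28 for *Zfp42*, -0.39 to 0.44 for *Tfcp2l1* and 0.02 to 1.36 for *Tbx3* (adjusted *p* = 0.895, 0.977 and 0.294).

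Over time the factors followed 2 courses. From day 4 to day 5 all 6 tested factors fell, and *Prdm14* was lower in all 5 series as well. The fall was steepest for *Nr0b1* (log2 change -3.38 ± 0.22 SE, adjusted *p* = 1.14e-06), followed by *Esrrb* (-2.44), *Nr5a2* (-2.31), *Tbx3* (-1.93) and *Tfcp2l1* (-1.92), and was smallest for *Zfp42* (-0.38 ± 0.14 SE, adjusted *p* = 0.0482). Of all genes 19.2% fell in this step. The call on *Zfp42* was lost without any 1 of the 4 hairpins (-0.44 to -0.32, adjusted *p* from 0.0621 to 0.176) and without the Smarca4.4 library of day 5 (-0.33, adjusted *p* = 0.0777). It was also lost after centring on the median gene (-0.31, adjusted *p* = 0.179), after quantile normalization (-0.25, adjusted *p* = 0.271) and with no filter on low values (adjusted *p* = 0.0771).

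From day 5 to day 6 the courses parted. *Nr0b1* (-2.93 ± 0.22 SE, adjusted *p* = 2.54e-06), *Nr5a2* (-1.74 ± 0.26 SE), *Esrrb* (-1.005 ± 0.20 SE) and *Zfp42* (-0.62 ± 0.14 SE) fell further, 4 of 6 where 15.3% of all genes fell. *Tbx3* (1.36 ± 0.41 SE, adjusted *p* = 0.0247) and *Tfcp2l1* (0.93 ± 0.26 SE, adjusted *p* = 0.0148) rose in all 5 series, 2 of 6 where 17.0% of all genes rose. The rise of *Tbx3* was lost without Smarcc1.7 (1.08, adjusted *p* = 0.124) and by limma-voom (1.28, adjusted *p* = 0.0558), and that of *Tfcp2l1* without Smarca4.4 or Smarca4.6 (1.01 and 0.86, adjusted *p* = 0.0631 and 0.100). From day 6 to day 7 only *Tfcp2l1* was called, as higher (1.25 ± 0.26 SE, adjusted *p* = 0.00492), where 16.9% of all genes rose, and without Smarca4.6 it missed the threshold (1.12, adjusted *p* = 0.0768). *Tbx3* was again higher in all 5 series (1.04 ± 0.41 SE, adjusted *p* = 0.0748). Between days 5 and 7 *Tbx3* rose 3.02-fold in Nons and 5.09-fold to 9.34-fold with the hairpins, and *Tfcp2l1* rose 5.82-fold in Nons and 3.14-fold to 7.26-fold. In this last step the share of calls that were higher was 61.5%, and 38.2% after centring on the median gene. With the hairpin series as a random effect *Tbx3* (adjusted *p* = 0.0364), *Nr0b1* (adjusted *p* = 0.0417) and *Nr5a2* (adjusted *p* = 0.0422) were called in it as well. Of the 13296 genes 3156 were then called higher and 1956 lower.

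Between days 4 and 7, 4 of 6 factors fell, where 28.8% of all genes did. *Nr0b1* fell by 6.85 on the log2 scale (adjusted *p* = 2.54e-10), with 0.515 to 1.75% of its day 4 level left, and stood 16th among all genes by *p*. *Esrrb* fell by 3.54 (adjusted *p* = 1.85e-08), *Nr5a2* by 3.43 (adjusted *p* = 1.57e-07) and *Zfp42* by 0.99 (adjusted *p* = 4.56e-05). *Tbx3* (0.47 ± 0.41 SE, adjusted *p* = 0.337) and *Tfcp2l1* (0.26 ± 0.26 SE, adjusted *p* = 0.389) did not pass the threshold. These 4 falls and 2 uncalled values were the same in every alternative run for this comparison. The change from day 4 to day 7 was not called different from that of Nons for any of the 6 factors in either knockdown by limma on log2 rpm or by limma-voom, with 2 factors (*Zfp42* and *Tfcp2l1*) at an unadjusted *p* under 0.05 in *Smarcc1* and 1 (*Zfp42*) in *Smarca4* knockdown. Of all genes 0.459% and 0.0827% were called in these comparisons. The interval for *Esrrb*, -0.25 to 2.05 in *Smarcc1* knockdown and -0.85 to 1.45 in *Smarca4* knockdown, was wide.

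**Figure D4:**
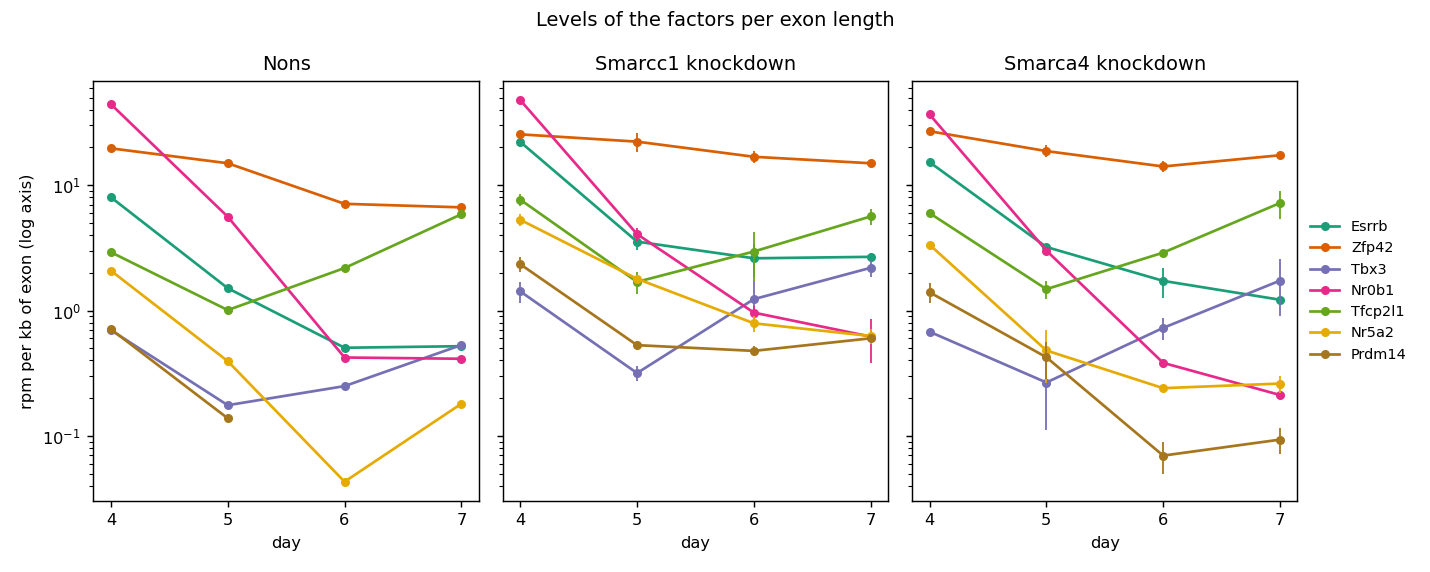
Level of each of the 7 factors as rpm per kilobase of exon (log axis, y) by day (x) in Nons (1 library a day) and in each knockdown (mean of 2 hairpins, bars from the lower to the higher). The line of *Nr0b1* starts highest and falls below those of *Zfp42* and *Tfcp2l1* in all 3 panels; *Prdm14* in Nons had 0 reads on days 6 and 7 and is not drawn there.

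Levels can be compared between genes only per length, here per kilobase of the union of annotated exons. On day 4 in Nons the order was *Nr0b1* (44.2 rpm per kb), *Zfp42* (19.7), *Esrrb* (8.01), *Tfcp2l1* (2.92), *Nr5a2* (2.08), *Prdm14* (0.710) and *Tbx3* (0.698), the last 2 next to equal. The order was the same in *Smarcc1* and in *Smarca4* knockdown, with no overlap between neighbours across hairpins. On day 7 in Nons it was *Zfp42* (6.66), *Tfcp2l1* (5.87), *Tbx3* (0.531), *Esrrb* (0.520), *Nr0b1* (0.413) and *Nr5a2* (0.181), with *Prdm14* at 0 reads. In *Smarcc1* knockdown on day 7 *Zfp42* (14.4 to 15.6) and *Tfcp2l1* (4.78 to 6.49) led, *Esrrb* (2.48 to 2.89) and *Tbx3* (1.84 to 2.54) overlapped, and *Nr5a2*, *Nr0b1* and *Prdm14* overlapped between 0.379 and 0.860. In *Smarca4* knockdown *Zfp42* (17.0 to 17.6) and *Tfcp2l1* (5.41 to 9.01) led as well, *Tbx3* (0.898 to 2.57) and *Esrrb* (1.15 to 1.29) overlapped, and *Prdm14* (0.0714 to 0.116) was lowest.

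Across the 20 libraries, which share days and hairpin series, *Esrrb*, *Zfp42*, *Nr0b1*, *Nr5a2* and *Prdm14* correlated with each other with Pearson's *r* from 0.68 to 0.92 over 10 pairs. This grouping was chosen after their values were seen. *Tbx3* and *Tfcp2l1* correlated with each other at 0.77 and with the other 5 at -0.14 to 0.30. After the mean of each day was subtracted *Esrrb* and *Prdm14* were closest (0.90) and *Nr0b1* and *Zfp42* stood at 0.05. The grouping did not hold on that scale, where *Tbx3* correlated at 0.72 with *Esrrb*, 0.70 with *Zfp42* and 0.76 with *Prdm14*, and at 0.40 with *Tfcp2l1*. Likeness to other genes was measured by Pearson's *r* over the 20 libraries with no day mean subtracted, so it includes the shared course over days. The tested genes most like the mean profile of the 7 factors were *Klf4* (0.97), *Daxx* (0.96), *Cdyl2* (0.95), *Kat2b* (0.95) and *Trip12* (0.95). The 2 genes most like each factor were *Sec1* and *Zbtb45* for *Esrrb*, *Stk31* and *Syce1* for *Zfp42*, *Kctd7* and *Nptn* for *Tbx3*, *Dpp4* and *Prpf19* for *Nr0b1*, *Zrsr1* and *Irak3* for *Tfcp2l1*, *Bnc2* and *Wbp2nl* for *Nr5a2*, and *Invs* and *Smoc1* for *Prdm14*, with *r* from 0.88 to 0.99.

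Among 25 other pluripotency genes, 13 rose and none fell in *Smarcc1* knockdown (median log2 difference 0.63), where 7.54% of all genes rose. In *Smarca4* knockdown 8 rose and none fell (median 0.36), where 4.75% of all genes rose. The median over all genes was 0.06 in each. Between days 4 and 7, 22 fell and 1 rose, where 28.8% of all genes fell. *Klf2*, a Krüppel-like naive factor, was raised most in both knockdowns, by 2.12 ± 0.17 (SE, adjusted *p* = 8.74e-06) and 1.65 ± 0.17 (SE, adjusted *p* = 0.000262). *Klf4* rose by 1.81 ± 0.20 (SE) in *Smarcc1* knockdown. With the hairpin series as a random effect 8 and 3 of the 25 were called, where 454 and 183 of the 13296 genes tested were called higher. Among 10 genes of the LIF and Wnt inputs *Lifr* (0.86) and *Il6st* (0.78), the subunits of the LIF receptor, rose in *Smarcc1* knockdown and *Socs3* (1.12), a STAT3 target, rose in *Smarca4* knockdown. The *Socs3* call was lost with the hairpin series as a random effect (adjusted *p* = 0.163). None of 12 genes that drive or restrain the exit from naive pluripotency, such as *Tcf7l1* and *Fgfr1*, was called in either by limma on log2 rpm or by limma-voom, with 3 and 1 at an unadjusted *p* under 0.05. Of 12 formative and primed genes 3 rose and 3 fell in *Smarcc1* knockdown and 1 rose and 3 fell in *Smarca4* knockdown, among them *Fgf5* (-1.31 and -1.10) and *Dnmt3l* (0.98 and 1.11). Of the 13296 genes tested 409 and 261 fell. Of these 12 formative and primed genes, 2 and 1 were called with the hairpin series as a random effect, where 605 and 258 of all genes tested were. *Fgf5* in *Smarca4* knockdown was not (adjusted *p* = 0.0820). Comparisons with Nons share their control libraries, so their counts are not independent.

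Markers of other cell types moved with day and knockdown to differing extents, and their part in these results was not tested. Of the 13296 genes tested, 7.54% rose in *Smarcc1* and 4.75% in *Smarca4* knockdown, and 409 and 261 genes fell. By limma 3025 and 2585 had an unadjusted *p* under 0.05. With the hairpin series as a random effect 605 and 258 were called, 454 and 183 of them higher. The summed level of 11 primitive and visceral endoderm markers ranged over 8.85 to 44.6 rpm in Nons, 12.8 to 52.2 in *Smarcc1* and 7.30 to 38.2 in *Smarca4* knockdown. It was highest on day 7, when *Tfcp2l1* and *Tbx3* rose. In Nons on that day *Dab2* alone made up 36.1 of the 44.6 rpm. *Dab2* was lower in every knockdown library of day 7, at 23.9 to 28.0 rpm, so the sum need not follow the other markers. Of the 5 tested endoderm markers 3 rose in *Smarcc1* knockdown (*Gata4*, *Pdgfra* and *Cubn*) and 1 in *Smarca4* knockdown (*Gata4*). By limma 4 and 2 had an unadjusted *p* under 0.05. With the hairpin series as a random effect 0 were called in either. *Ttr*, *Foxa2*, *Gata6*, *Afp*, *Sox7* and *Sox17* were each at 0 reads in at least 1 library and at most 1.51 rpm. Of 7 tested germ cell markers 5 rose in *Smarcc1* and 3 in *Smarca4* knockdown, against 7.54% and 4.75% of all genes (4 and 2 with the hairpin series as a random effect). This list shares *Dppa3* with the pluripotency genes and *Tfap2c* with the trophoblast markers. Its summed level on day 4 was 457 rpm in Nons, 725 to 808 in *Smarcc1* and 685 to 718 in *Smarca4* knockdown. Of 5 tested trophoblast markers 1 and 2 rose (1 and 1 with the hairpin series as a random effect). *Tfap2c* (0.91 and 0.84) was the trophoblast marker called in *Smarcc1* knockdown. It was also the only trophoblast marker left in either knockdown with that random effect, so both lists count it. Trophoblast sums were 23.5 to 40.2 rpm in Nons and 30.4 to 61.5 in the knockdowns. Of 6 tested 2-cell-like markers 0 and 1 rose by limma on log2 rpm, with 1 and 4 at an unadjusted *p* under 0.05. By limma-voom or with the hairpin series as a random effect 0 rose in both. Their sums were 32.2 to 104 rpm over all libraries. Fibroblast markers, of which 5 were tested, reached 59.1 rpm in Nons, 128 in *Smarcc1* and 48.7 in *Smarca4* knockdown on day 7. Of the 5, 1 was higher and 1 lower in *Smarcc1* and 1 lower in *Smarca4* knockdown. With the hairpin series as a random effect 1 and 0 were called. *Lum* was at 0 reads in 15 of 20 libraries. Mesoderm markers summed to at most 7.53 rpm and neural markers to between 58.9 and 184 rpm, with *Sox1* higher in both knockdowns (2.40 and 2.33) and *Neurod1* lower in *Smarca4* knockdown (-1.15). *Sox1* was also called in both with the hairpin series as a random effect (adjusted *p* = 0.00438 and 0.0102), and *Neurod1* was not (adjusted *p* = 0.181).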

How the data were processed

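RNA-seq was single-end with 75 bp reads. The authors trimmed and aligned the reads to mm10 (tophat or HISAT2 by the methods; HISAT2 and bcl2fastq by the submitters' processing notes) and quantified genes in SeqMonk, and the deposited values are log2 rpm. The annotation release and the use of strand are not given in the sources used here. The lowest value of a library equals 0.9 of a read, from which whole reads were recovered for 100% of values (to within 0.02 of a read) and library totals computed. Scaling to each library's total makes a gene's value relative to all others. Reads are not independent molecules, so floors cover counting error only.

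Groups, hairpins and days were taken from sample titles. A genotype label names the *Smarca4* libraries as a Smarcc knockdown, and the titles were followed. Of 24 labelled samples, 4 (a second Nons series) were not analysed here, because the values used did not include them. limma 3.58.1 in R 4.3.3 (lmFit, eBayes with trend) was fitted to all 20 libraries with 12 group-day means and 8 residual degrees of freedom. It covered the 13296 genes whose mean log2 rpm reached 0, with Benjamini-Hochberg adjustment over all of them and a threshold of 0.05. Hairpin numbers are names and pair no cultures. The replicate block was the hairpin series, that is all days of 1 hairpin or of Nons, as a random effect with an estimated correlation of 0.217. The labels do not say whether the days of a series came from the same culture. The code was tested on simulated data. Genes named are the 7 factors, the targets, some genes of the lists, and the genes most correlated with the factors. The named genes of a list are not always its most changed called genes. Among those not named above were *Cdh2* (-1.78 in *Smarca4* knockdown) and *Dcn* (-2.95 in *Smarcc1* knockdown). Marker genes named for reads at 0 were chosen after their values were seen. The factors and lists were chosen with earlier results of these data known. Alternatives were other filters, 1 added to rpm, centring, quantile normalization, a common lowest value, limma-voom, the block, an additive model, and fits without each hairpin or the smallest library. Fits without each day were added after seeing the data. Exons and sites are from GENCODE M21 and promoters from RefSeq. For 4 factors the deposited positions equal the GENCODE spans.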

Additional observations from a re-analysis of the deposited data

Results flagged for a closer look

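The 3 differences listed here were singled out because the test of *Smarcc1* against *Smarca4* knockdown itself passed the threshold. *Nr5a2* was higher in *Smarcc1* knockdown by 1.42 on the log2 scale, with every *Smarcc1* library above every *Smarca4* library of its day. *Nr0b1* was higher by 0.89, again without overlap on any of the 4 days. *Esrrb* was higher by 0.60, with overlap on days 5 and 6. With the hairpin series as a random effect *Nr0b1* (adjusted *p* = 0.0806) and *Esrrb* (adjusted *p* = 0.267) were not called. The *Nr5a2* call was lost when Smarcc1.6 was left out, and that of *Nr0b1* when Smarcc1.6 or either *Smarca4* hairpin was. The *Esrrb* call was lost whichever hairpin was left out. The groups held 2 libraries a day, too few for a check of single outlying libraries.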

How the results depend on the processing

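Of the called results on single factors and targets, the following kept direction and call in each alternative run for them. Against Nons these were the rise of *Esrrb* in both knockdowns and that of *Nr5a2* in *Smarcc1* knockdown. The fall of *Smarcc1* in its own knockdown did so too. Over time they were the falls between days 4 and 7, those from day 5 to 6, and those from day 4 to 5 except that of *Zfp42*. Counts moved by over 1.5 times as follows, and the cause was not tested except that a filter at 10 rpm tests fewer genes and leaving libraries out uses fewer samples. Genes called in *Smarcc1* knockdown against Nons (1412) became 579 with at least 10 rpm, 605 with the replicate block, 793 without day 6, 379 without day 7 and 843 to 1288 without 1 hairpin. The factors called (4) became 2 without day 7. They also became 2 with at least 10 rpm, a filter that left 4 factors to test in each comparison and took out *Nr5a2* and *Tbx3*. In *Smarca4* knockdown against Nons 892 genes became 324 with at least 10 rpm, 258 with the replicate block, 497 without day 4, 431 without day 6, 132 without day 7 and 277 to 656 without 1 hairpin, and 3 factors became 1 without day 7. Between the knockdowns 544 genes became 241, 105 with the replicate block, 1067 without the Smarca4.4 library of day 5, 327, 173 and 56 without day 4, 6 and 7, and 49 to 263 without 1 hairpin, and 3 factors became 1 with at least 10 rpm, 1 with the replicate block, 1 without day 7 and 0 to 2 without 1 hairpin. From day 4 to 5, 5147 genes became 3420 with at least 10 rpm and 3179 to 5030 without 1 hairpin. From day 6 to 7, 3656 genes became 1061 to 4031 without 1 hairpin, and 1 factor became 2 after centring, 4 with the replicate block, 3 without the Smarca4.4 library of day 5 and 0 to 1 without 1 hairpin. For the change from day 4 to 7 against Nons, 61 genes in *Smarcc1* knockdown became 11 with at least 10 rpm, 19 with 1 added to rpm, 6 after quantile normalization, 175 with the replicate block and 0 to 8 without 1 hairpin. In *Smarca4* knockdown 11 became 1 with no filter, 0 with at least 10 rpm, 0 with 1 added, 0 after quantile normalization, 2 with a common lowest value, 4 by limma-voom, 20 with the replicate block and 0 to 0 without 1 hairpin.

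These log2 values changed sign, none of them past the threshold in the fit as reported. *Nr0b1* in *Smarcc1* knockdown against Nons was -0.11 after quantile normalization. *Zfp42* between the knockdowns was -0.0135 without day 5, -0.0194 without day 6 and -0.0791 to 0.178 without 1 hairpin, and *Tfcp2l1* was -0.0860 without day 4, -0.0304 without day 5 and -0.228 to 0.273 without 1 hairpin. From day 6 to 7 *Esrrb* was -0.285 to 0.0771 without 1 hairpin, and *Zfp42* was -0.182 after centring, -0.183 after quantile normalization and -0.0248 to 0.0561 without 1 hairpin. In the change from day 4 to 7 in *Smarcc1* knockdown *Nr0b1* was -0.58 after quantile normalization and -0.182 to 0.904 without 1 hairpin, and *Nr5a2* was -0.0975 with 1 added to rpm and -0.229 after quantile normalization. Leaving out Nons could not be done with 1 Nons series, and the additive model gives the 3 knockdown comparisons only. Depth limits *Prdm14* most.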
